A study of Mus musculus with 4 samples.

Results

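The keratin and keratin-associated protein genes were followed across the lamina maps of mouse hepatocytes. The members were the protein-coding genes of the mm9 annotation whose symbol is Krt or Krtap followed by a digit. This gave 97 of 22367 genes, 51 of them Krt and 46 Krtap. Lamina-associated domains (LADs) had been mapped by DamID, in which a bacterial adenine methylase (Dam) fused to LaminB1 marks GATC sites at the nuclear envelope. Primary hepatocytes of WT mice and of *Tm7sf2*-KO mice, which lack the nuclear envelope protein NET47, were infected for 24 h with lentivirus carrying LaminB1-Dam or, as control, Dam alone. The cells were cultured without serum, with insulin, dexamethasone and epidermal growth factor, and only part of them took up the virus. The mice, on a C57BL/6 background, were 12 to 16 weeks old, and each of the 4 libraries (WT LaminB1-Dam, WT Dam control, KO LaminB1-Dam and KO Dam control) held the pooled DNA of 4 mice. With 1 library per genotype and construct, a difference between WT and KO had no replicate check, no test was made between them, and the values below describe these libraries. *Tm7sf2* itself could not be used to check the labels, because the deposited lists hold intervals and no signal, so the read depth behind an interval was unknown as well. By the study's own account KO had fewer usable reads than WT, and depth and genotype cannot be told apart in any contrast below.

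Keratins form the intermediate filaments of epithelial cells, and each filament is built from pairs of an acidic type I and a basic type II chain. Hepatocytes are known for making a single pair, *Krt8* with *Krt18*, while *Krt7* and *Krt19* mark the bile duct epithelium and *Krt23* is known from stressed liver. Other keratins belong to the layers of the skin, to the inner root sheath of the hair follicle or to the hair shaft, where keratin-associated proteins, encoded by Krtap genes, crosslink the hair keratins through cysteine or pack between them as glycine- and tyrosine-rich chains. LADs are mostly poor in active genes, and genes of other tissues are often found in them.

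Members were classed by where their span lay. A gene was called PI when its span shared at least 1 base with a differential region (DR) of at least 10 kb that was in a LAD in WT only, and IP when the DR was in a LAD in KO only. Genes with both kinds were called AMB, genes in LADs of both genotypes with neither kind of DR PP, and the rest II, where P stands for the periphery and I for the interior of the nucleus. Of the 97 members, 35 were PP and 41 were II. Another 15 were IP, 6 were PI and 0 were AMB. Across all protein-coding genes, 17.9% were PP, 56.6% II, 17.1% IP, 5.43% PI and 2.96% AMB, so that the PP share of the members, 36.1%, was larger and their IP share (15.5%) and PI share (6.19%) were near the background. The members were short, with a median length of 3.91 kb against 15.4 kb over all genes, which leaves less span for an overlap. By the transcription start alone, 6 members were PI and 12 IP, which is 6.19% and 12.4% of them, against 2.23% and 12% of all genes. The start lay in a LAD for 43 members in WT and for 48 in KO, or 44.3% and 49.5%, against 22.7% and 32.8% of all genes.

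The families differed mainly in their PP and II shares. Of the 46 Krtap genes, 30 were PP, 7 IP, 1 PI and 8 II, or 65.2%, 15.2%, 2.17% and 17.4%. Of the 51 Krt genes, 5 were PP, 8 IP, 5 PI and 33 II, or 9.8%, 15.7%, 9.8% and 64.7%. Over all genes these shares were 17.9%, 17.1%, 5.43% and 56.6%, so the IP share of either family was near that of all genes. Krtap genes had a median length of 0.855 kb and Krt genes of 6.99 kb. Nearly all members lay in 4 clusters, defined as runs of at least 3 members with neighbours at most 1 Mb apart. The clusters were on chromosome 11 (49 members), chromosome 15 (24), chromosome 16 (19) and chromosome 7 (4), and they held most of the contrast between members. Of the 2812.1 kb in the 4 clusters, 52.4% was in LADs in WT and 54.2% in KO, close to the genome's 55.4% and 56.1%, yet the single clusters ran from 0% to 100% in WT. The exception to clustering was *Krtap12-1* (chr10:77183331-77184001), which was II and lay 781 kb from the nearest LAD in WT and 632 kb in KO.

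**Figure D1:**
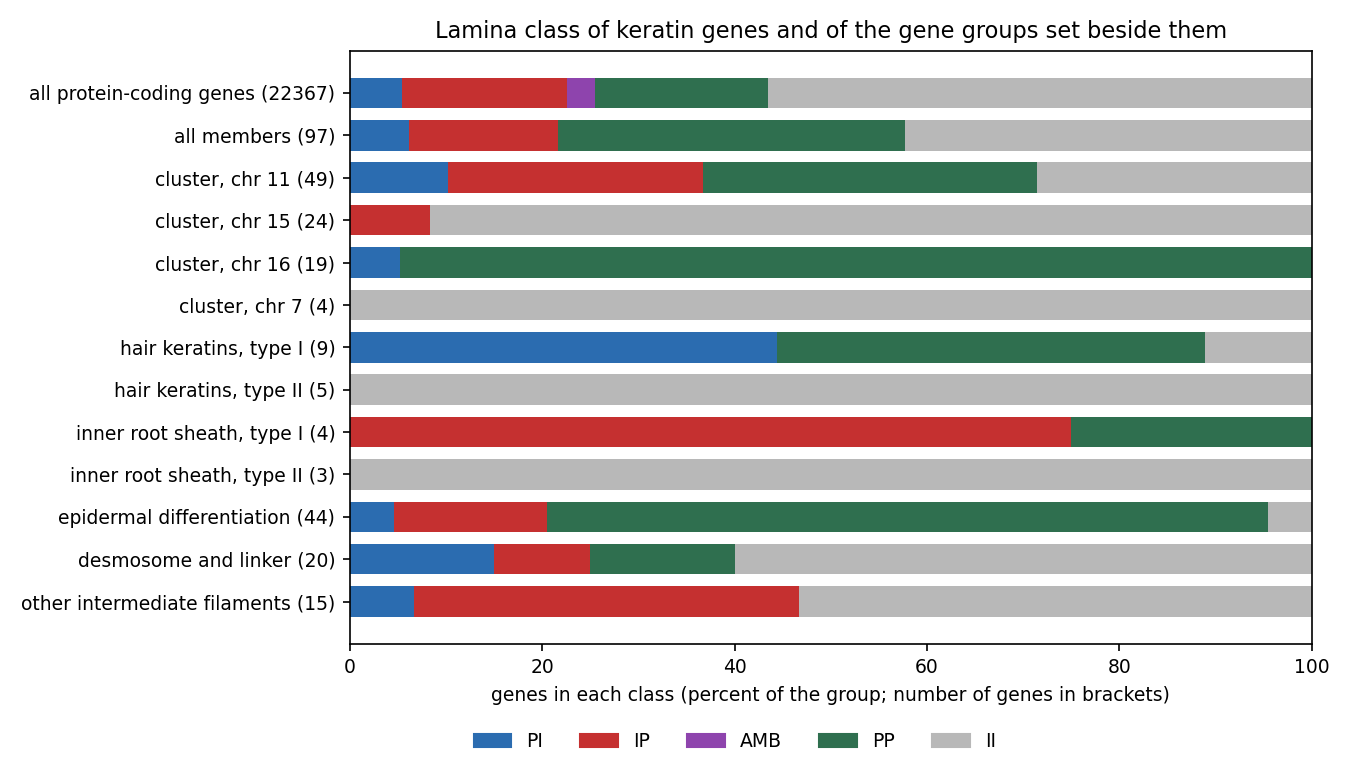
Percent of the genes of each group (horizontal axis) in the classes PI, IP, AMB, PP and II, with the number of genes in brackets. All members of the chromosome 7 cluster were II, 22 of 24 members were II on chromosome 15, and 18 of 19 were PP on chromosome 16, while chromosome 11 held all 4 of the classes that members took.

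The hepatocyte keratins were interior in both genotypes. *Krt8* (ENSMUSG00000049382.9, chr15:101827142-101834773, minus strand) and *Krt18* (ENSMUSG00000023043.6, chr15:101858647-101862457, plus strand) sit side by side at one end of the type II cluster, where *Krt18* is the only type I gene. All 9 exons of *Krt8* and all 7 of *Krt18* lay outside LADs. *Krt8* was 380 kb from the nearest LAD in WT and 181 kb in KO. *Krt18* was 411 kb from it in WT and 212 kb in KO, so both kept a wide interior margin in the 2 lists. The distances of both genes ran to the same short LAD in each list, of 15.2 kb in WT and 13.4 kb in KO. The bile duct keratins were II too. *Krt7* lay 171 kb from a LAD in WT and 164 kb in KO, whereas *Krt19*, in the chromosome 11 cluster, had nearer ones, 28.2 kb away in WT and 6.86 kb in KO. *Krt23*, also on chromosome 11, was 16.2 kb from a LAD in WT and 50.7 kb in KO. Among these 5 genes of liver epithelium, *Krt23* alone was nearer to a LAD in WT than in KO.

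The promoter windows of the hepatocyte pair are shown because both genes are active in this cell type and their CpG content differed. Each window runs 5′ to 3′ on the gene's own strand, from 250 bases before the annotated start to 50 bases from it, in the NCBIM37 (mm9) genome, with CG dinucleotides in capitals. *Krt8* (chr15:101834724-101835023, minus strand) had 6 and *Krt18* (chr15:101858397-101858696, plus strand) had 17, against a median of 11 over all genes.
Krt8: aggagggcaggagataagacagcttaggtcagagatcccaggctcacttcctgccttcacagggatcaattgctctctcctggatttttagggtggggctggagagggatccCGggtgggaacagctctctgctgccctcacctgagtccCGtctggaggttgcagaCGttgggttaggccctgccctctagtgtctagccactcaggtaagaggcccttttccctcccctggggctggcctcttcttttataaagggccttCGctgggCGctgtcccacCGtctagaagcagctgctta
Krt18: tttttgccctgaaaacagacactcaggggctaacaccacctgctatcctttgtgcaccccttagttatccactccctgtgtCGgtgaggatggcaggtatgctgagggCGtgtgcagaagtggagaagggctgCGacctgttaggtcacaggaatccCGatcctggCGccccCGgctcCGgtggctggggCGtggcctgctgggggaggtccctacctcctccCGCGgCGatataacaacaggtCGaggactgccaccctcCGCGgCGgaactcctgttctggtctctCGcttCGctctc

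The type II keratin cluster of chromosome 15 (chr15:101177875-101862457, 685 kb, *Krt80* to *Krt18*) was interior almost throughout. LADs covered 2.22% of it in WT and 5.64% in KO, on a chromosome where they covered 54.4% and 52.1%. Of the 24 members, 22 were II and 2 were IP, or 91.7% and 8.33%, against 73.2% and 11.8% of the other 773 genes of the chromosome. The only WT LAD in the span was 15.2 kb long and held no member, nor did the WT-only DR of 10.5 kb within it. KO had 3 LADs of 12.3, 13 and 13.4 kb. *Krt2* (chr15:101641120-101648600), a keratin of the upper epidermis, lay with 70.4% of its span in the longest of them, which was also the longest KO-only DR there, and the border fell in exon 3 of 9. *Krt72-ps* (chr15:101606603-101616889), named *Krt72* in a later assembly, had 60.9% of its span in a KO-only DR of 13 kb, with the border in exon 6 of 9. Neither gene touched a LAD in WT, where the nearest was 194 kb and 159 kb away. The type II keratins of the inner root sheath *Krt71*, *Krt73* and *Krt74* and the 5 type II hair keratins were II, as were 12 of the 13 epithelial type II keratins. *Krt73* missed the IP call by 0.157 kb, the distance from its span to a KO LAD. The first gene, *Krt80*, was 232 kb from a LAD in WT and 224 kb in KO. Of the 22 II members, 20 lay nearer to a LAD in KO than in WT, and their median distance was 167 kb in WT and 76.5 kb in KO. The whole chromosome had 664 LADs in KO and 310 in WT, and no such count of distances was made over all genes. The distances of the members are not independent, since genes of 1 cluster shared the same few LADs. Without LADs under 20 kb the cluster was at 0% in both genotypes.

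The Krtap cluster of chromosome 16 (chr16:88610954-89571428, 960 kb, *Krtap24-1* to *Krtap11-1*) was the opposite case. In WT all 19 members lay inside 1 LAD of 2285.4 kb (chr16:87767819-90053266), which ran beyond the cluster on both sides. In KO, LADs covered 97.3% of the span, in 2 LADs of 163 and 948 kb, the longer of which held 17 members. The first and the last member and 18 members in all were PP, with 100% of the span in LADs of both genotypes, and these included all 11 Krtap genes rich in glycine and tyrosine codons. The gap between the KO LADs was a WT-only DR of 26.1 kb (chr16:88627572-88653646), and the only member in it was *Krtap26-1* (chr16:88647069-88648041, minus strand), with 100% of its span in a LAD in WT and 0% in KO. *Krtap26-1* encodes a hair keratin-associated protein and lay 5.61 kb from the next KO LAD. With gaps of up to 50 kb joined in both lists, this gap closed and *Krtap26-1* was PP. The 1 Mb below the cluster was covered to 86.2% in WT and 83% in KO, and the 1 Mb above it to 66.7% and 65.1%, so that the cluster lay within a larger lamina-associated region.

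The sequences at both ends of this gap are shown because they set the extent of the WT-only stretch. They are plus-strand reference sequence of NCBIM37, 40 bases each with the border in the middle and GATC, the site that Dam methylates, in capitals. The first window is chr16:88627552-88627591 and the second chr16:88653627-88653666. A GATC lay within 4 bases of each of the 54 LAD borders in the clusters, so that an extent could change only in steps of the distance between such sites, which averaged 400 bases in this cluster.
start of the WT-only DR: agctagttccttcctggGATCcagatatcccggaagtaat
end of the WT-only DR: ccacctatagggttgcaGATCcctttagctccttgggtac

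The promoter window of *Krtap26-1* (chr16:88647992-88648291, minus strand) held 5 CG dinucleotides, in capitals, and the letters TATAAA.
Krtap26-1: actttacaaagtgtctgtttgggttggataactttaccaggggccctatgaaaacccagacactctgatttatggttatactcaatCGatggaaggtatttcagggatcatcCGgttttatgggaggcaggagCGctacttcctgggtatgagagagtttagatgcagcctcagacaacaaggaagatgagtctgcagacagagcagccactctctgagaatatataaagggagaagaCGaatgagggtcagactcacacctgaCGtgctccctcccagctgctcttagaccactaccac

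The *Krtap5* cluster of chromosome 7 (chr7:149360437-149490408, 130 kb) held *Krtap5-2*, *Krtap5-3*, *Krtap5-5* and *Krtap5-4*, in this order, all cysteine-rich and all II. WT had 0 LADs in the span, and its nearest LAD lay 382 to 511 kb from the members. KO had 1 LAD of 13.3 kb (chr7:149400162-149413510), which was also a KO-only DR. It lay between *Krtap5-3*, 11.2 kb away, and *Krtap5-5*, 1.19 kb away, and touched no member. *Krtap5-2*, the first gene, was 38.3 kb and *Krtap5-4*, the last, 75.9 kb from it. Without LADs under 20 kb this cluster was at 0% in both genotypes. Of the 50-base words in the span, 6.81% occurred more than once in it. In the members this share was 21.1% to 39.1%, and its part in the calls was not tested. The Krtap genes of chromosome 7 and those of chromosome 16 were thus at opposite ends of the range, although both groups act in the hair shaft.

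**Figure D2:**
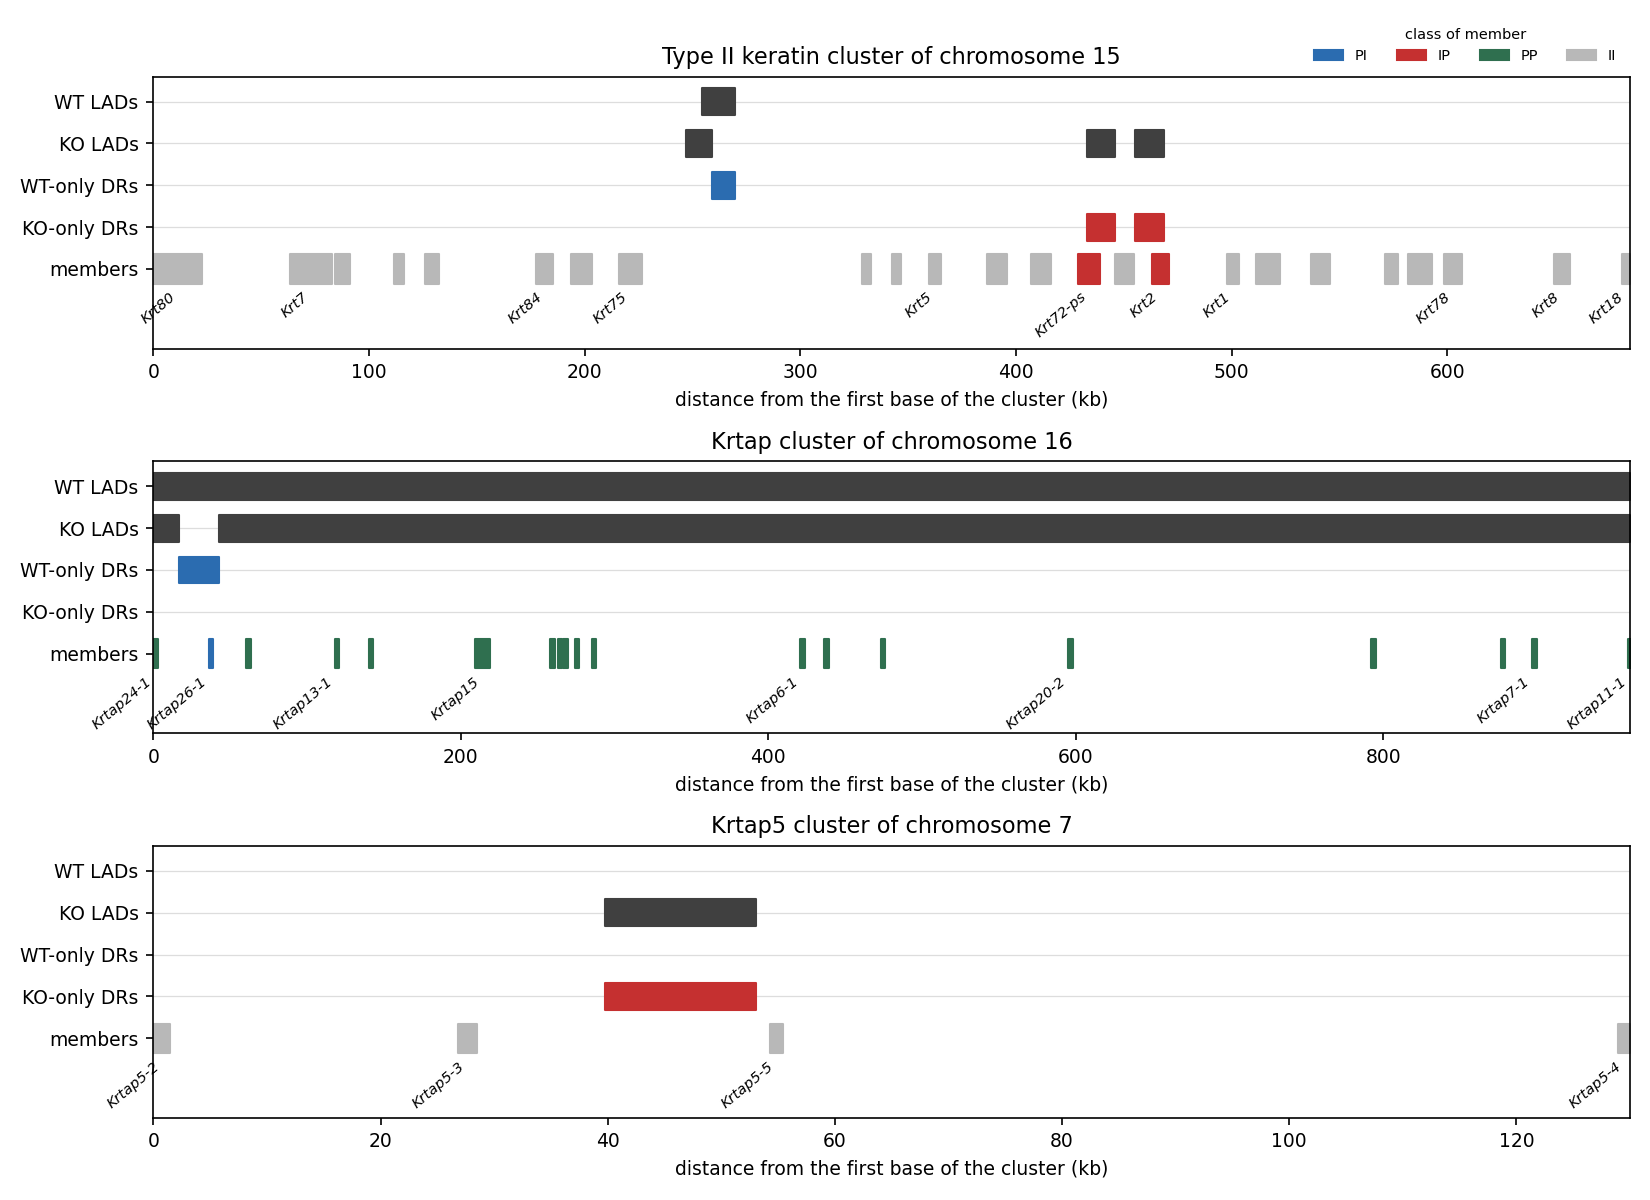
Maps of the clusters of chromosomes 15, 16 and 7, with LADs of WT and KO, DRs of either kind and the members coloured by class along the distance from the first base of the cluster (kb). Short genes are drawn wider than to scale. Chromosome 15 held 1 short WT LAD and 3 short KO LADs, chromosome 16 was filled by LADs except for the WT-only DR of 26.1 kb, and chromosome 7 held 1 KO LAD between members.

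The cluster of chromosome 11 (chr11:99094075-100131185, 1037.1 kb, *Krt222* to *Krt42*) held 5 of the 6 PI and 13 of the 15 IP members. It holds the type I keratins other than *Krt18*, with 22 Krtap genes between them. Of its 49 members, 5 were PI, 13 IP, 17 PP and 14 II, that is 10.2%, 26.5%, 34.7% and 28.6%. The other 1604 genes of chromosome 11 were 5.74% PI, 10% IP, 7.79% PP and 74.7% II. LADs covered 48% of the span in WT and 51.8% in KO. The total was therefore similar while the positions differed, since of the LAD bases in the span 71.4% of those of WT and 66.1% of those of KO were shared, against 80.2% and 84.3% on the whole chromosome. The span held 11 WT LADs of 10 to 114 kb and 10 KO LADs of 12.7 to 130 kb, in contrast to the whole chromosome, where KO had 689 LADs and WT 330. WT-only DRs covered 114 kb (6 DRs) and KO-only DRs 171 kb (9 DRs). With gaps of up to 50 kb joined, coverage was 64.8% in WT and 58.8% in KO, so which genotype had more LAD bases depended on this setting.

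The cluster stood out from its surroundings. In WT, LADs covered 0% of the 1 Mb on either side of it. In KO they covered 3.29% of the 1 Mb below, in 1 LAD, and 0% of the 1 Mb above. In WT the lamina-associated stretches thus lay within the keratin cluster, and in KO all but 1 did, which was not the case on chromosome 16.

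**Figure D3:**
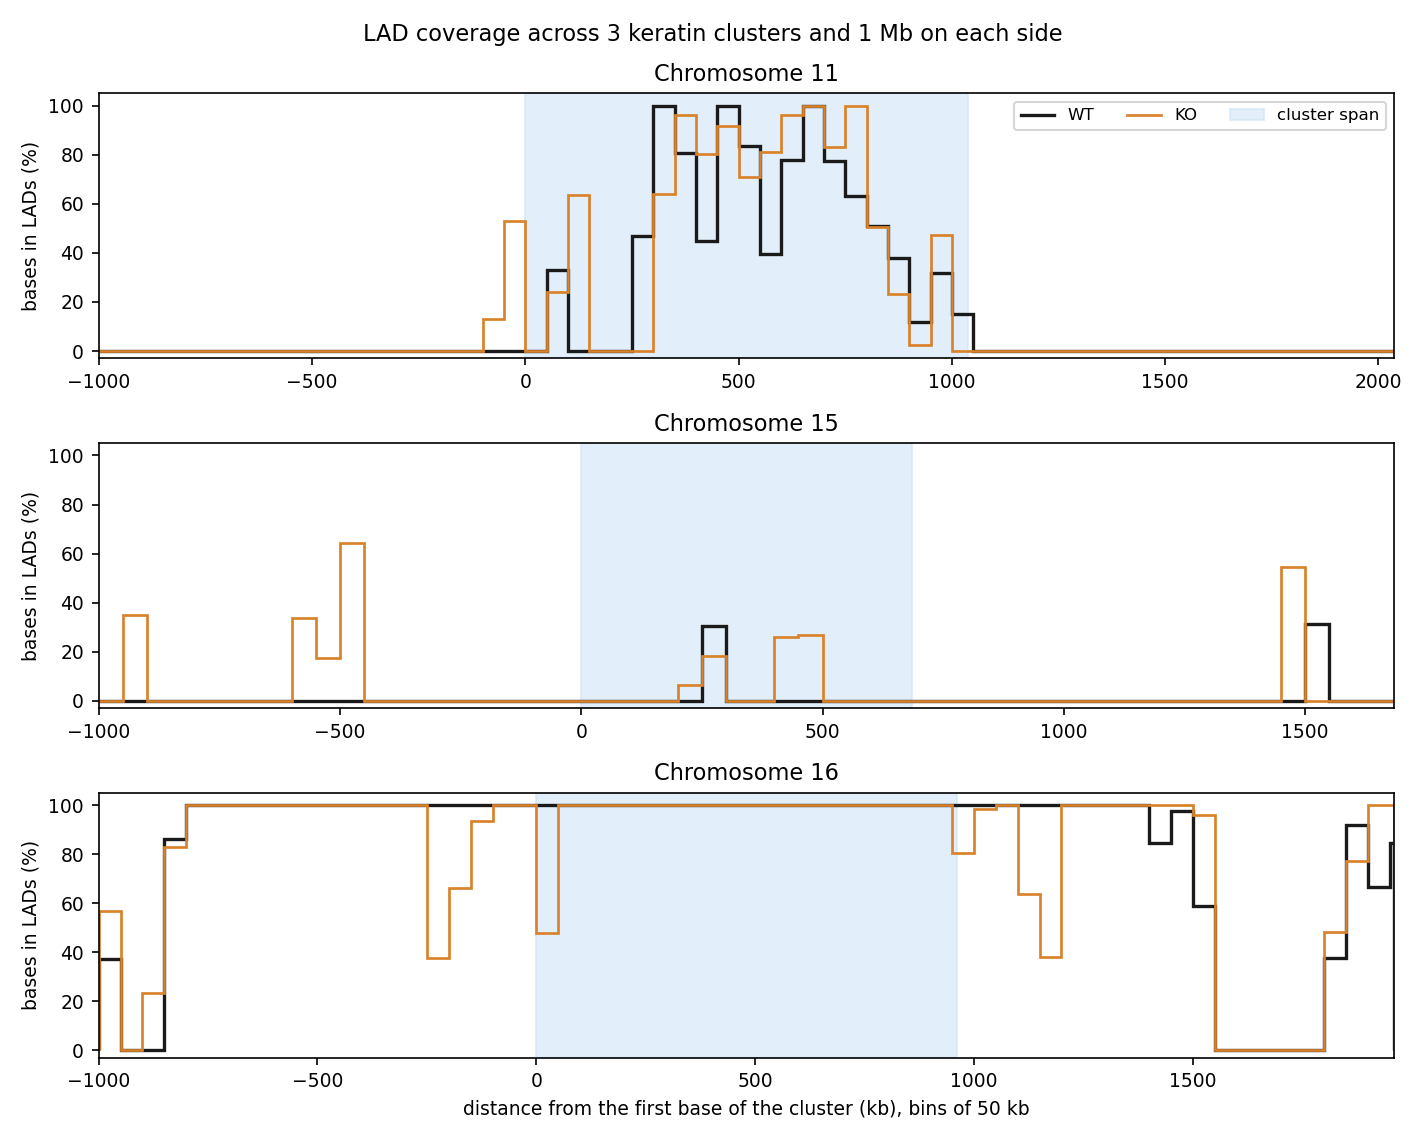
Percent of bases in LADs (vertical axis) in bins of 50 kb across the clusters of chromosomes 11, 15 and 16 and 1 Mb on each side, for WT (black) and KO (orange), with the cluster span shaded. On chromosome 11 LADs filled much of the shaded span and almost none of the flanks, on chromosome 15 span and flanks were both nearly free of LADs, and on chromosome 16 both were largely covered.

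Along chromosome 11 the genes fell into runs of one kind, and the runs differed. The first run, *Krt222* to *Krt23*, held 10 keratins of skin, gut, cornea and inner root sheath (6 II, 3 IP and 1 PP), and LADs covered 6.37% of it in WT and 16.9% in KO. Its IP genes were *Krt26*, *Krt27* and *Krt28*, type I keratins of the inner root sheath, and the PP gene was the fourth of that kind, *Krt25*. *Krt28* (chr11:99226186-99236217) was outside LADs in WT, by 35.2 kb, and wholly inside a KO LAD of 17 kb with all 8 exons. *Krt26* (chr11:99189864-99199280) had 12% of its span in a LAD in WT and 100% in KO, and *Krt27* (chr11:99206879-99212418) 0% and 37.6%. *Krt25* had 100% of its span in a LAD in WT and 30.2% in KO, but the stretch lost was 7.62 kb long, under the 10 kb asked of a DR. At these 4 genes the WT LAD of 16.6 kb and the first KO LAD of 26.9 kb overlapped only in part, with the KO LAD reaching further toward *Krt28*. None of the 3 IP calls held with DRs of at least 20 kb. *Krt10*, the suprabasal partner of *Krt1*, followed them at 55.6 kb from a LAD in WT and 5.25 kb in KO.

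The second run was *Krt39* and *Krt40*, both type I hair keratins and both PI. *Krt39* (chr11:99375428-99382652) and *Krt40* (chr11:99398799-99404472) each had 100% of their span in a LAD in WT and 0% in KO. They lay in the longest WT-only DR of the cluster, 34.5 kb (chr11:99370624-99405166), which was the near end of a WT LAD of 114 kb. The KO LAD began right after this DR, 0.694 kb from *Krt40* and 22.5 kb from *Krt39*.

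The third run, *Krtap3-3* to *Krtap17-1*, held the 22 Krtap genes, all cysteine-rich, with 14.6% to 38.9% cysteine codons. Of them, 12 were PP, 7 IP, 3 II and 0 PI. LADs covered 75.4% of the run in WT and 87.2% in KO, and it held the longest LADs of the cluster, 130 kb in KO (chr11:99695937-99826352) and 114 kb in WT (chr11:99521683-99635928). WT-only DRs covered 28.4 kb of the run (2 DRs, without a member) and KO-only DRs 92.4 kb (5 DRs). The IP genes lay in gaps between WT LADs that KO LADs closed or narrowed. With gaps of up to 50 kb joined in both lists, all 7 were PP, so that no IP call of this run was left. The longest such KO-only DR, 37.3 kb (chr11:99484345-99521682), held *Krtap4-1*, *Krtap4-2* and *Krtap4-7*, each outside the WT LADs (0% of the span) and wholly covered (100%) by a KO LAD. *Krtap4-8*, *Krtap4-13* and *Krtap17-1* had the same values, and *Krtap4-9* went from 55.1% to 100%. The 3 II genes of this run were so called only because of the length asked of a DR. *Krtap1-5* and *Krtap1-4* were in a LAD in WT only, over a stretch of 8.75 kb, and *Krtap9-5* in KO only, over 9.03 kb. These copies are alike in sequence, and how reads that map to more than one place were handled is not given in the sources used here. Of the 50-base words in the cluster 4.32% occurred more than once in it, with 5.59% in its KO-only DRs and 1.49% in its WT-only DRs. The share reached 81.4% in *Krtap4-13* and was 0% in *Krtap17-1*, both IP, and its part in the calls was not tested.

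The fourth run, *Krt33a* to *Krt36*, held the other 7 type I hair keratins. *Krt33a*, *Krt33b*, *Krt34* and *Krt31* were PP, wholly inside LADs of both genotypes. *Krt32* (chr11:99942162-99949540) and *Krt35* (chr11:99953506-99957555) were PI, with 100% of their span and all 7 exons of each in a WT LAD of 21.8 kb and 0% in KO, where the nearest LAD was 22.9 kb and 25 kb away. *Krt36* was II and lay 0.302 kb beyond that WT LAD. LADs covered 69.9% of this run in WT and 49.5% in KO.

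The last run, *Krt13* to *Krt42*, held 8 keratins of stratified and simple epithelia, among them *Krt19*. LADs covered 19.2% of it in WT and 23.8% in KO, and 0% was shared. *Krt9* (chr11:100048095-100054560), the keratin of palm and sole skin, was PI, in a WT LAD of 19.3 kb that was absent in KO. *Krt14* (chr11:100064476-100068862), the type I keratin of basal epidermal cells, was IP, wholly inside a KO LAD of 23.6 kb that was absent in WT. The 2 genes are neighbours and went opposite ways, *Krt9* from 100% to 0% and *Krt14* from 0% to 100%, with *Krt9* 6.4 kb from a KO LAD and *Krt14* 6.96 kb from a WT LAD. Either call depended on a setting, since *Krt9* was II with DRs or LADs of at least 20 kb, and *Krt14* was PP with gaps of up to 50 kb joined. *Krt13* and *Krt15* shared a KO-only DR of 12.7 kb, with 8.54% and 52.4% of their spans in it. Both were II with DRs or LADs of at least 20 kb. *Krt16*, *Krt17* and *Krt42* were II, at 5.83 to 22.6 kb from a LAD in WT and 22.9 to 39.7 kb in KO. The PI calls on chromosome 11 were thus spread over 3 separate DRs and the IP calls over 8, and genes that share a DR are not separate observations.

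**Figure D4:**
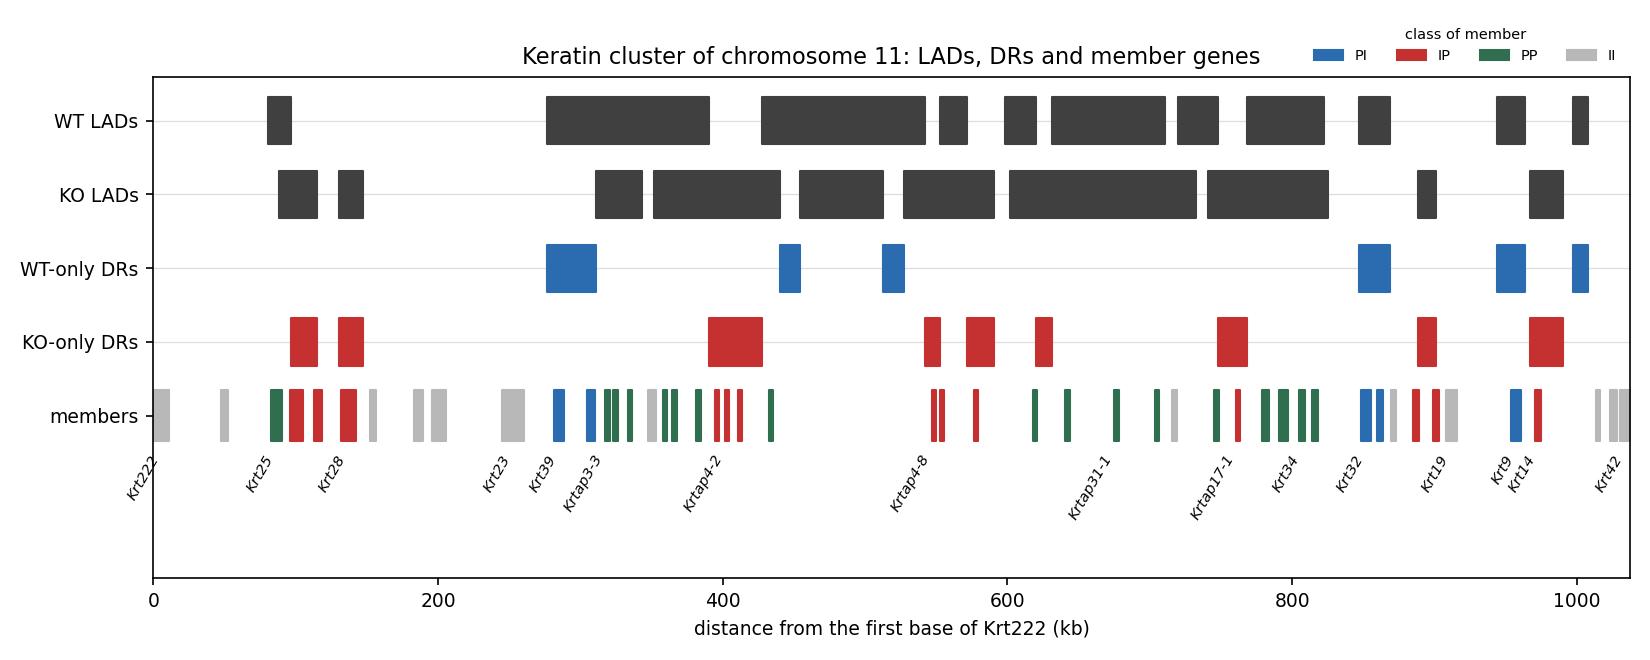
Map of the chromosome 11 cluster along the distance from the first base of *Krt222* (kb), with LADs of WT and KO, DRs of either kind and the 49 members coloured by class, where short genes are drawn wider than to scale. The central Krtap run was mostly covered by LADs in both genotypes, with WT gaps closed or narrowed in KO. It also held 2 WT-only DRs, at gaps between KO LADs. *Krt39* and *Krt40*, *Krt32* and *Krt35*, and *Krt9* lay in other WT-only DRs.

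Promoter windows of a PI and an IP keratin from this cluster are shown as examples of the genes whose class differed between the lists. CG dinucleotides are in capitals, 5′ to 3′ on the gene's strand in NCBIM37, for *Krt35* (chr11:99957506-99957805, minus strand, 9 CG) and *Krt14* (chr11:100068813-100069112, minus strand, 8 CG). Both held TATAAA.
Krt35: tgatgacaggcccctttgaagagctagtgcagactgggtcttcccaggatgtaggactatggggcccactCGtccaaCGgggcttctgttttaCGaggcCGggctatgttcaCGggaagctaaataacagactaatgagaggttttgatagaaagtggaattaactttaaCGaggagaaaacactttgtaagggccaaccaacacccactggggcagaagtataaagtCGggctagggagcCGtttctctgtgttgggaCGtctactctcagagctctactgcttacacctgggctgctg
Krt14: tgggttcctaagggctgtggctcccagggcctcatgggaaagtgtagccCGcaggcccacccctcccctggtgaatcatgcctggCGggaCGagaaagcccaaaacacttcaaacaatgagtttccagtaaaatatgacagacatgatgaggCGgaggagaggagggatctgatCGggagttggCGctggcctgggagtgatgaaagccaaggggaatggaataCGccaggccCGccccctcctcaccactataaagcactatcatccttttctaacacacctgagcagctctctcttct

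LAD borders fell inside 8 of the 97 members, 1 in each. Of these borders, 5 were in exons and 3 in introns, and 7 of the genes were IP. A border inside a gene leaves part of it in 1 list only, unless the other list has the same border. That these genes overlap a LAD difference thus follows from how they were picked, and no such count was made over all genes. *Krt25* was PP because its stretch of 7.62 kb was under the 10 kb asked of a DR. The border in *Krt26* was the end of a WT LAD in exon 8 of 8. The *Krt13* border was the start of a KO LAD in exon 1 of 8, and the *Krt15* border the end of the same KO LAD, in the intron between exons 3 and 4. They are shown, 40 bases each on the plus strand of NCBIM37 with GATC in capitals, as the points at which the 2 ends of a gene received different calls. Their windows are chr11:99190976-99191015, chr11:99982499-99982538 and chr11:99995247-99995286.
WT LAD end in Krt26: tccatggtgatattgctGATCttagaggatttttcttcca
KO LAD start in Krt13: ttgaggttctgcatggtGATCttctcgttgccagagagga
KO LAD end in Krt15: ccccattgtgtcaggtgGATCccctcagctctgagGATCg
Sites were as dense in the clusters as elsewhere, with 383 to 415 bases per GATC against 399 in the genome. The short Krtap genes held few of them, a median of 1.5 per gene with 12 of 46 genes at 0, while Krt genes held a median of 23 and at least 7. The 12 genes without a site were placed by fragments that reach beyond the gene on both sides.

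Some keratins that pair in one filament had the same class and others did not. The pairs were chosen with their values known. *Krt8* and *Krt18*, the pair of simple epithelia, were both II, and so were *Krt1* and *Krt10* of the suprabasal epidermis, and *Krt6a* and *Krt16* of stressed epidermis. *Krt5* was II and its basal partner *Krt14* IP. *Krt4* was II and its partner in inner stratified epithelia, *Krt13*, IP. *Krt2* was the reverse case, a type II keratin called IP whose partner *Krt10* was II. The IP calls of *Krt14*, *Krt13* and *Krt2* each depended on a setting. *Krt14* was PP with gaps of up to 50 kb joined. *Krt13* was II when at least 10% of the span had to lie in a DR, and *Krt2* was II by its transcription start alone. With DRs of at least 20 kb, *Krt13* and *Krt2* were both II. The type I hair keratins were 4 PI, 4 PP and 1 II, whereas all 5 type II hair keratins, which pair with them, were II. Over all genes 5.43% were PI, 17.9% PP and 56.6% II. Of the PI genes, *Krt39* and *Krt40* shared 1 DR, as did *Krt32* and *Krt35*. In the inner root sheath the type I genes were 3 IP and 1 PP. The type II genes *Krt71*, *Krt73* and *Krt74* were II, and *Krt72-ps*, the gene later named *Krt72*, was IP. In WT, 8 of the 9 type I hair keratins and 2 of the 4 type I root sheath keratins touched a LAD, and 0 of these type II genes did. These type I genes all lay in the chromosome 11 cluster and these type II genes in the chromosome 15 cluster. Chain type and cluster thus cannot be told apart here.

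The Krtap genes also split by composition. With at least 10% cysteine codons, 30 were cysteine-rich, and of these 14 were PP, 8 II, 7 IP and 1 PI. Of the rest, 11 had at least 40% glycine and tyrosine codons and all 11 were PP, as were the 5 with neither property. All 11 glycine-tyrosine-rich genes lay on chromosome 16, where their glycine and tyrosine codons ranged from 47.5% to 70.4%, so that composition and cluster cannot be told apart. The clusters differed in base content as well. G and C made up 38.8% of the chromosome 16 cluster, 44.1% on chromosome 11, 46.2% on chromosome 7 and 48.3% on chromosome 15, against 41.8% of the genome. All 4 were rich in genes, with 34.4 to 80 protein-coding genes per Mb against 8.74.

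Member promoters were poor in CpG and often held a TATA motif. The 300-base windows had a median of 3 CG dinucleotides, against 11 over all genes, with 2 in Krtap and 5 in Krt genes. Only 5 of 97 members had at least 10, or 5.15%, against 54% of all genes. PP members had a median of 2, as did all PP genes, and II members had 4, against 16 for all II genes. The interior keratins were thus CpG-poor relative to other interior genes. TATAAA on the gene's strand was found in 61 members, or 62.9%, against 9.05% of all genes, and on either strand in 64.9% against 13.4%. It was in 82.6% of Krtap genes. By cluster it was in 79.6% of members on chromosome 11, in 68.4% on chromosome 16 and in 20.8% on chromosome 15. *Krt8* held it and *Krt18* did not. A match of these letters is a description of the window.

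**Figure D5:**
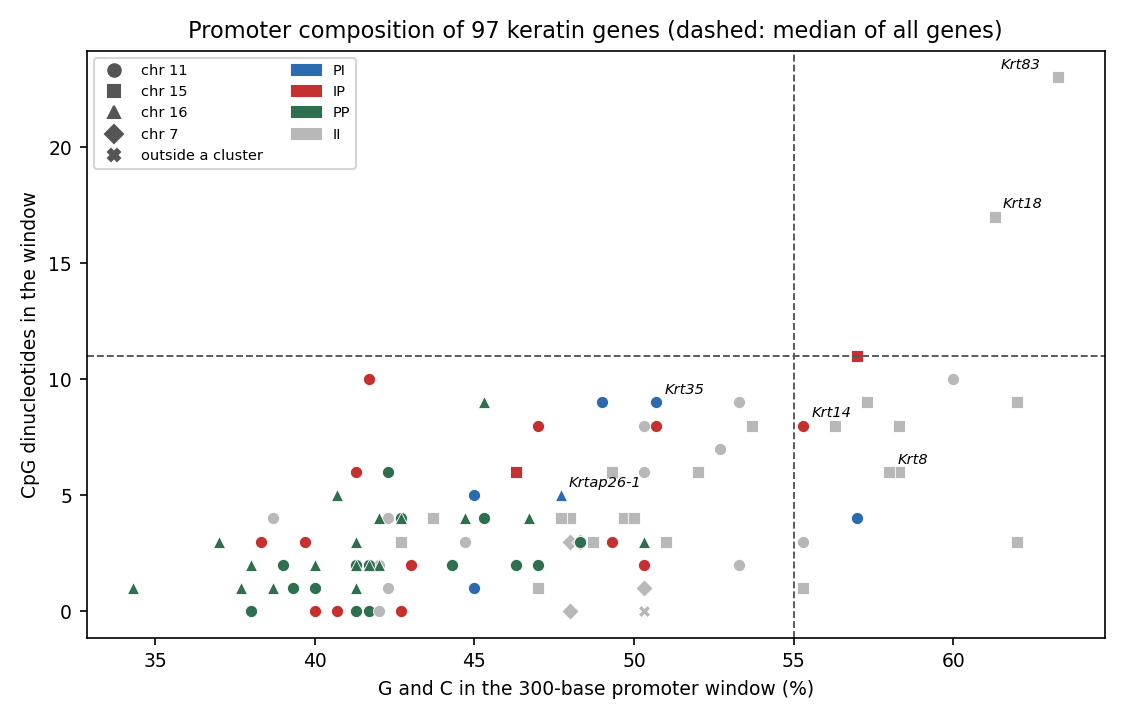
Number of CG dinucleotides (vertical axis) against the percent of G and C (horizontal axis) in the 300-base promoter window of each of the 97 members, with the marker shape giving the cluster and the colour the class. Dashed lines mark the medians of all genes, 11 CG and 55% G and C. Most members lie in the lower left, and *Krt18* and *Krt83* stand highest, with 17 and 23.

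Related gene groups gave a different picture from one another. Of 44 genes of the epidermal differentiation complex on chromosome 3, 33 were PP, 7 IP, 2 PI and 2 II. They include those of the cornified layer proteins loricrin and filaggrin. Thus 75% of the 44 were PP, against 36.1% of the members and 17.9% of all genes. *Lor* was PP, and *Flg* was IP, with 56.8% of the gene covered in WT and 100% in KO. Of 20 genes of desmosomes and linker proteins, to which keratin filaments attach, 12 were II, 3 PP, 3 PI and 2 IP, the PI genes being *Dsg1a*, *Dsg1b* and *Dsc3*. That is 60%, 15%, 15% and 10%, against 56.6%, 17.9%, 5.43% and 17.1% of all genes. The 3 PI and 3 PP genes lay close together on chromosome 18, so they are not separate observations. The PI genes were still partly in KO LADs, with 88.7% of *Dsg1a*, 44.5% of *Dsg1b* and 43.9% of *Dsc3* covered. Of 15 genes of other intermediate filament proteins, 8 were II, 6 IP, 1 PI and 0 PP. That is 53.3%, 40%, 6.67% and 0%, against 56.6%, 17.1%, 5.43% and 17.9% of all genes. The IP genes had 20% to 64.4% of their spans in KO-only DRs. Among them, the span of *Nefl* lay within that of *Nefm*, so these calls are not separate observations. *Vim*, the vimentin gene of mesenchymal cells, was II, with the nearest LAD 3.33 kb away in WT and 3.41 kb in KO. Of the 3 groups, the epidermal differentiation genes thus had the largest PP share and the other filament genes had no PP call. The groups also differed in gene length. The median was 1.71 kb for the epidermal differentiation genes, 37.1 kb for the desmosome and linker genes and 13.6 kb for the other filament genes. The part of length in these calls was not tested.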

How the data were processed

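The deposited files hold, for each genotype, the LADs and the DRs as intervals on mm9, with no signal, count or score, and the authors made them by mapping reads, taking the ratio of LaminB1-Dam to Dam and segmenting it with DNAcopy at default settings. The submitters' processing notes list BWA and limma. A DR is a stretch of at least 10 kb that one LAD list covers and the other does not, and repeating this subtraction returned all 7787 WT-only and 8208 KO-only DRs, with 0 extra. Whether starts count from 0 is not given in the sources used here, so positions, printed 1-based, are uncertain by 1 base. Spans, exons and sequences came from NCBIM37, the assembly of mm9, with its GENCODE annotation (vM1). Later symbols came from a RefSeq table of GRCm38.p6, used for names alone. Python 3.11.15, numpy 2.4.6, pysam 0.24.0 and matplotlib 3.10.9 were used. Interval steps were tested on simulated data (3000 spans, 60 pairs of lists, 0 errors).

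Members and lists were chosen with earlier results of these data known. Named were *Krt8*, *Krt18*, *Krt7*, *Krt19* and *Krt23*, the first and last member of each cluster, every PI or AMB member, up to 5 IP members per cluster with the largest share in KO-only DRs (ties by position), members outside clusters, and the longest LADs and DRs. Other members that the text names were added after their values had been seen, as were the codon limits, promoter windows, partner pairs and repeat counts. Hair and root sheath types follow the gene symbols, and codon shares the longest annotated coding sequence.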

Additional observations from a re-analysis of the deposited data

How the results depend on the processing

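A count or coverage was taken as unchanged within 1.5 times its value. Of the alternative values for the class counts, the coverage and the DR bases of all clusters, 46 stayed within that factor and 10 did not. Those that stayed include the AMB count, which was 0 in each setting but the 100 kb window. They also include the coverage with 500 kb or 2 Mb between neighbours, which could not differ because the clusters were the same. In another setting the 100 kb centred on a gene was classed in place of its span. Of the members, 11 were then PI, 29 IP, 15 PP, 19 II and 23 AMB. That is 11.3%, 29.9%, 15.5%, 19.6% and 23.7%, against 9.71%, 27.1%, 15%, 42.2% and 6.06% of all genes. Windows of genes in 1 cluster overlap, and what lies behind the larger AMB share was not tested. With DRs of at least 20 kb, 5 members were IP, or 5.15%, against 11.1% of all genes. The clusters then held 82.4 kb of WT-only and 81.6 kb of KO-only DRs. With gaps up to 50 kb joined, 8 members were IP, or 8.25%, against 16.5% of all genes. The clusters then held 112 kb of KO-only DRs. Of the 6 PI members, 3 kept the call in the 100 kb window and 5 or 6 under each other alternative. Of the 15 IP members, 5 kept it with DRs of at least 20 kb, 6 in the 100 kb window, 7 with gaps joined and 10 to 15 under the others. Clusters were the same 4 with a distance of 500 kb or 2 Mb between neighbours. No paired analysis was possible because each genotype and construct has 1 library, and no library could be left out. The lists give no depth per interval, and a border or gap in either list has no error attached. KO had fewer usable reads than WT by the study's account, and what this difference in depth does to the calls was not tested.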

Other observations

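The clusters held 57 protein-coding genes that are not members, 34 PP, 9 II, 7 PI and 7 IP. That is 59.6%, 15.8%, 12.3% and 12.3%, against 17.9%, 56.6%, 5.43% and 17.1% of all genes. Of the 57 genes, 52 had at least 10% cysteine codons or at least 40% glycine and tyrosine codons. This is the composition of the Krtap genes, although their symbols do not name them so. All 34 on chromosome 11 were cysteine-rich. Among them was a run of very short genes with symbols from Gm14177 to Gm14196, whose codons were 47.6% to 53.3% cysteine. This run lay between *Krtap4-6* and *Krtap4-8* and held both WT-only DRs of the Krtap run, of 13.9 kb and 14.5 kb, neither of which held a member. *Gm14177*, *Gm14187* and *Gm14189* lay in the first and *Gm14178*, *Gm14181* and *Gm14194* in the second, each with 100% of its span in a LAD in WT and 0% in KO. These 6 genes made up all 6 of the PI genes among the non-members on chromosome 11. Both DRs were gaps between KO LADs, so neither is left with DRs of at least 20 kb or with gaps of up to 50 kb joined. On chromosome 15, 3 of the 4 non-members have keratin symbols in a later assembly, and all 4 were II. On chromosome 16, 13 of the 14 were PP, and the exception, *2310079G19Rik*, was PI with 61.3% of its span still in a KO LAD.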
